A study of Mus musculus with 8 samples.

Results

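The interferon-induced genes examined here are 41 mouse genes, marked by Isg15 and Gbp6, and their members were taken as every array probe that carries the symbol of a listed gene. Of the 41 genes, 30 were found by their current symbol in the array table, with 49 probes. Another 9 were found under an older name that RefSeq gives to 1 current gene, such as G1p2 for Isg15 and Icsbp1 for Irf8. This made 39 genes and 64 probes of the 25697 on the array. Gbp3 and Xaf1 were not analysed here, because no probe could be tied to either by name. After a filter on low values (detected on at least 4 of 8 arrays at a detection p under 0.01), 35 of the 64 probes, from 26 genes, were tested among 10547 probes.

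The tissue was left ventricle together with septum, taken at 12 months of age from animals of the Swiss Agouti background, and each mouse had 1 Illumina bead array. The 4 heterozygotes carry a knock-in deletion in 1 copy of the targeted gene, and the 4 controls are their wild-type littermates. The series' title places the comparison in the study of ventricular fibrosis with ageing. The labels name no agent, no Cre and no cell-type promoter, and they give each mouse as a biological replicate.

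Interferons are secreted proteins that cells release when they sense foreign or misplaced nucleic acid. Type I interferons act through a receptor whose kinases, Jak1 and Tyk2, phosphorylate STAT factors, Stat2 among them, which join Irf9 and bind the interferon-stimulated response element (ISRE) in the promoters of target genes. Interferon gamma acts mainly through the gamma-activated site (GAS). The targets include proteins that bind or degrade viral RNA, proteins that block viral entry or release, GTPases that attack vacuoles holding microbes, the sensors and factors of the pathway itself, and its own inhibitors. In heart tissue, resident macrophages, endothelium, fibroblasts and cardiomyocytes can all express them, and in bulk tissue more cells of a type and more RNA per cell cannot be told apart.

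The promoters of 4 members are printed because they stand for the patterns described below: Isg15 is a marker, Ifit3 and Ifitm3 were highest in a single heterozygote, and Rsad2 was not, although its promoter holds the same element. Each window runs from 250 bases before to 50 bases after the start used for it, on the gene's strand (RefSeq, GRCm38.p6). For Ifit3 that start is not the outer end of the gene, since its RefSeq record begins at chr19:34583119, before the window. They lie at chr4:156200769-156201068 (minus strand, Isg15), chr19:34583279-34583578 (plus, Ifit3), chr7:141010695-141010994 (minus, Ifitm3) and chr12:26456403-26456702 (minus, Rsad2). Capitals mark matches to the ISRE core.
Isg15: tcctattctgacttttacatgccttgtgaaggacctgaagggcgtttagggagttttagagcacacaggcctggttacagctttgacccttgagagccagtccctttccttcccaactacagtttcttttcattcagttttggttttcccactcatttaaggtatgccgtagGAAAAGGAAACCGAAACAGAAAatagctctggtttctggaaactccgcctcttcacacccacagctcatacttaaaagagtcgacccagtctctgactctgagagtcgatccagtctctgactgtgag
Ifit3: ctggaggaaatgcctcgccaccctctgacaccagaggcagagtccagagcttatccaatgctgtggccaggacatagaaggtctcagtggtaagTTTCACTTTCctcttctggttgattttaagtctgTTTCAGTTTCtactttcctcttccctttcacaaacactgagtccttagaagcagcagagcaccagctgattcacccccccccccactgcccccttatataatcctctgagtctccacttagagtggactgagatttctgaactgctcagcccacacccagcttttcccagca
Ifitm3: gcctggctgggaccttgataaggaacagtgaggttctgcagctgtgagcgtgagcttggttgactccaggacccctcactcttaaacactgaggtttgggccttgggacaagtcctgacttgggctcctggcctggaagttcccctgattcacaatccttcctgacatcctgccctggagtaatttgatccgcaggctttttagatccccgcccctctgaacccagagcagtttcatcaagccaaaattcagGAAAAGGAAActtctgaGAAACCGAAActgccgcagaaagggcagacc
Rsad2: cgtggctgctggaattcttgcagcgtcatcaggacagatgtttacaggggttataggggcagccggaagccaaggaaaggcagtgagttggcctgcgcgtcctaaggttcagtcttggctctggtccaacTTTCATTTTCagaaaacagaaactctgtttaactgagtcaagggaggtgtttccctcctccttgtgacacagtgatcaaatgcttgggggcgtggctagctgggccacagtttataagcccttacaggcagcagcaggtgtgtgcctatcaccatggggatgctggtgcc

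The ISRE core was searched as TTTCNNTTTC, which reads GAAANNGAAA on the other strand, and the GAS core as TTCNNNGAA, which reads the same on both strands. Isg15 held 3 overlapping ISRE matches, of which the first began 78 bases before the start. Ifit3 held 2, of which the first began 156 bases before the start used for its window. In Ifitm3 both matches lay just after the start, and in Rsad2 the single match began 120 bases before it. Of the 31 listed genes with a promoter window in the table, 18 held an ISRE core (58.1%), against 3.99% of all 27025 genes. A GAS core was present in 9 of the 31 (29.0%), against 9.55% of all genes. A match describes the letters and is not a measured binding site.

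Expression of the module in the ventricle was uneven. A probe was detected on all 8 arrays for 20 of the 39 genes, and on 4 to 7 arrays for 6 more. The best probe was detected on 1 to 3 arrays for 4 genes, namely Isg20, an exonuclease, Irf7, a factor that amplifies type I interferon production, Rtp4, and Tap1, a subunit of the peptide transporter of antigen presentation. No probe was detected on any array for 9 genes, namely Ifi44, Ifih1, Ifit1, Ifitm1, Mx1, Oas1a, Oas3, Iigp1 and Trim30, so nothing about their levels could be read at this sensitivity. The undetected genes include the RNA sensor Ifih1 and the antiviral GTPase Mx1.

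Heterozygote 3 had the most member probes detected. It had 43 of 64 (67.2%), while the other 3 heterozygotes had 30, 33 and 33 and the wild types 32, 34, 34 and 30. Heterozygote 3 also had the highest detection over all probes, at 44.9% against 39.3% to 42.1% in the other 7 mice. Of the 8 member probes detected on 1 to 3 arrays, all 8 were detected in heterozygote 3, and 5 of them in that mouse alone. Across the whole array 525 of the 1608 probes detected in exactly 1 mouse were detected in heterozygote 3.

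**Figure D1:**
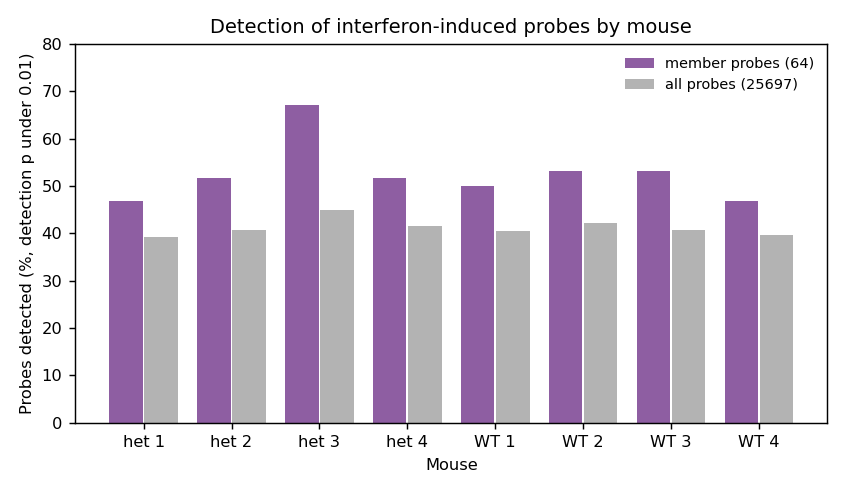
Share of probes detected (detection p under 0.01, in percent) in each mouse, for the 64 member probes and for all 25697 probes. Heterozygote 3 stands at 67.2% of member probes and the other 7 mice between 46.9% and 53.1%, while the share of all probes runs from 39.3% to 44.9%.

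Irf7 shows what single-mouse detection looked like. Its deposited mean bead signal, a linear intensity after background subtraction, was 1.1, 3.8, 48.9 and 6.3 in heterozygotes 1 to 4 and 5.9, 2.6, 1.4 and 4.5 in wild types 1 to 4. Only the signal of heterozygote 3 passed detection, and the other heterozygotes overlapped the wild types. Tap1, which was detected on 2 arrays, was at 8.0, 1.3, 47.3 and 10.4 in the heterozygotes and at 3.9, 15.1, 7.2 and 8.5 in the wild types.

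None of the 26 tested member genes passed an adjusted p of 0.05 between the genotypes (0 of 26, against 0.0% of all 10547 probes), and their adjusted p-values ran from 0.947 to 0.996. Mx2 and Gbp6 had an unadjusted p under 0.05 in the direction of the heterozygotes, where 2.04% of all probes did (2.64% in the other direction), and Mx2 did not under every processing tried. The difference, taken as heterozygote minus wild type in normalized log2 intensity, was above 0 for 26 of 26 members, against 50.1% of all probes. It was above 0 for 32 of the 35 member probes, and for 4324 of 8146 genes by their brightest probe. The median difference was 0.38 (0.04 in Tap2 to 0.82 in Usp18), against 0.00 over all probes and 0.01 over the brightest probe of every gene. In 0 of 26 genes did the normalized levels of the genotypes stand apart without overlap, against 1.53% of all probes with the heterozygotes higher and 1.14% with them lower.

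Those differences came largely with 1 mouse. Without heterozygote 3 the difference was above 0 for 18 of 26 members, against 54.1% of all probes. It was above 0 for 21 of the 35 member probes, and for 4597 of 8146 genes by their brightest probe. The median over the members was 0.07 (-0.16 in Ddx58 to 0.48 in Gbp6), against 0.02 over all probes. Of the 26, Gbp6 alone then had an unadjusted p under 0.05, where 4.03% of all probes did in that direction and 3.7% in the other, and 0 of 26 passed the adjusted threshold (0.0% of all probes). Levels of the genotypes stood apart without overlap in 0 of 26, against 5.41% of all probes with the heterozygotes higher and 2.75% with them lower. Mx2 and Ddx58 had been detected on 4 arrays only by counting heterozygote 3. With the detection filter redone on the other 7 mice, 17 of 24 members were higher and the median stayed at 0.07.

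Counted mouse by mouse, heterozygote 3 held the highest normalized level for 22 of the 26 members (84.6%), as it did for 19.0% of all probes. The exceptions were Ifit2 and Rsad2, highest in heterozygote 2, Ifi35, highest in wild type 3, and Tap2, highest in wild type 4. Relative to the median of the wild types, the member genes stood at a median of 1.24 in heterozygote 3. The same quantity was 0.18, 0.00 and 0.13 in heterozygotes 1, 2 and 4, and 0.04, 0.10, -0.04 and -0.05 in wild types 1 to 4. All mice other than heterozygote 3 therefore lay close together. Heterozygotes 1 and 4 were a little above the wild types, and heterozygote 2 lay inside their range.

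The excess of heterozygote 3 over the median of the other 7 mice had a median of 1.13 over the 26 members, against -0.10 over all probes. It exceeded 1 for 15 members (57.7%), against 5.11% of all probes. The lowest was -0.18 in Ifit2 and the highest 2.55 in Usp18. The members also varied more: the median standard error of the difference was 0.29 over the members and 0.18 over all probes, and 0.17 for both without heterozygote 3.

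**Figure D2:**
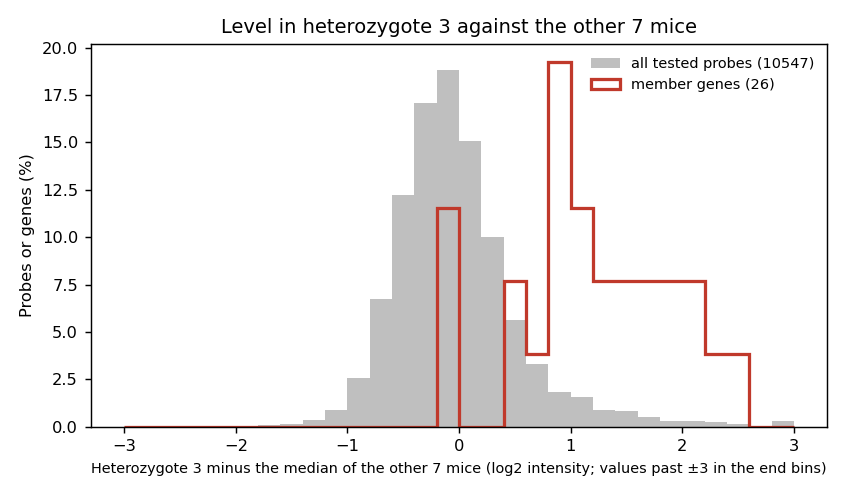
Histogram of normalized log2 intensity in heterozygote 3 minus the median of the other 7 mice, for the 26 member genes (outline) and all 10547 tested probes (filled), each as a percent of its set. The members centre on 1.13 and all probes on -0.10.

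**Figure D3:**
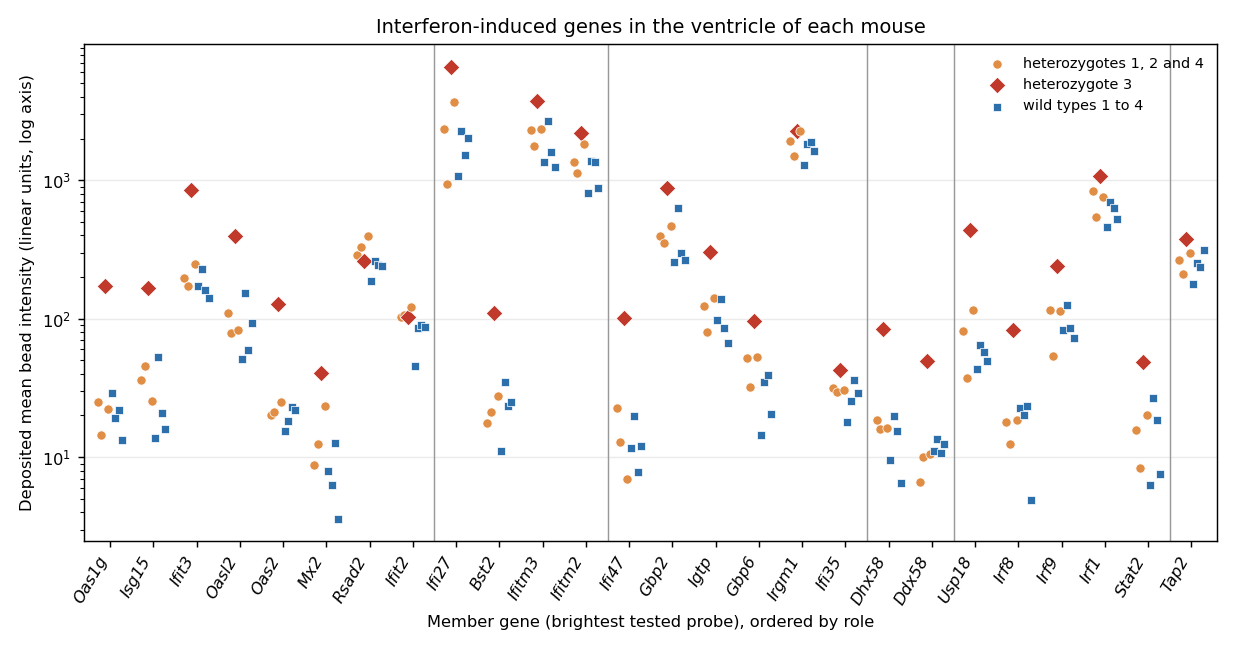
Deposited mean bead intensity (linear units on a log axis) of the brightest tested probe of each of the 26 members, 1 point per mouse, with vertical lines between role groups. Heterozygote 3 (diamonds) stands above the other mice in most members but not in Ifit2 or Rsad2. Levels are not to be compared between genes, since each probe has its own brightness.

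The marker Isg15 encodes a ubiquitin-like protein that is joined to other proteins after interferon and can also be secreted. Its deposited signal was 36.3, 45.5, 166.7 and 25.4 in heterozygotes 1 to 4 and 13.7, 52.5, 20.9 and 15.9 in wild types 1 to 4. Heterozygote 3 was highest on this scale, wild type 2 came second, and the other mice of both genotypes overlapped. Normalized levels were 6.11 ± 0.90 in the heterozygotes and 5.32 ± 0.41 in the wild types (log2 intensity, SD, n = 4 each). The difference was 0.78 (95% interval -0.09 to 1.66, adjusted p = 0.947) with all mice and 0.37 (-0.21 to 0.94, adjusted p = 0.76) without heterozygote 3.

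Gbp6, a guanylate-binding protein of the family that coats microbial vacuoles, was the other marker. In heterozygotes 1 to 4 its signal was 51.6, 32.1, 95.9 and 52.9, and in wild types 1 to 4 it was 14.5, 34.8, 39.3 and 20.6. Heterozygotes 1, 3 and 4 lay above every wild type, and heterozygote 2 lay inside their range. Normalized levels were 6.08 ± 0.38 in the heterozygotes and 5.43 ± 0.26 in the wild types (log2 intensity, SD, n = 4 each). The difference was 0.65 (95% interval 0.18 to 1.11, adjusted p = 0.947) with an unadjusted p of 0.0112, and 0.48 (0.08 to 0.87, adjusted p = 0.637) with an unadjusted p of 0.0231 without heterozygote 3. Gbp6 was thus the member with the smallest p in both fits, and in neither did it pass the adjusted threshold. These values rest on 1 probe, since a second Gbp6 probe was detected on 0 arrays and was not tested.

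Among the other effectors against viral RNA, Mx2 encodes a dynamin-like GTPase. It was dim, with signals of 8.8, 12.4, 40.7 and 23.6 in the heterozygotes and 7.9, 6.3, 12.7 and 3.6 in the wild types, and was detected in 3 heterozygotes and 1 wild type. The 2 highest signals were those of heterozygotes 3 and 4, and the rest overlapped. Its difference was 0.49 (95% interval 0.05 to 0.93, adjusted p = 0.947) with an unadjusted p of 0.0310, and 0.34 (-0.04 to 0.71, adjusted p = 0.686) without heterozygote 3.

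Ifit3, a tetratricopeptide-repeat protein that acts in a complex binding viral RNA ends, had the pattern seen in most members. Its signals were 196.4, 171.0, 850.1 and 247.2 in the heterozygotes and 170.9, 229.6, 160.1 and 142.0 in the wild types. Heterozygote 3 lay more than 3 times above every other mouse, and the others overlapped. The difference was 0.55 (95% interval -0.39 to 1.49, adjusted p = 0.954) with all mice and 0.04 (-0.34 to 0.41, adjusted p = 0.97) without heterozygote 3.

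Ifit2, of the same family and next to Ifit3 on chromosome 19, did not share that pattern. Signals of its brightest probe were 102.5, 106.4, 102.3 and 121.9 in the heterozygotes and 45.6, 85.3, 90.4 and 87.2 in the wild types. On this deposited scale the genotypes did not overlap and heterozygote 3 was the lowest heterozygote, but after normalization heterozygote 3 (6.67) lay inside the wild-type range of 6.30 to 6.87. The difference was 0.28 (95% interval -0.07 to 0.63, adjusted p = 0.947) with all mice and 0.34 (-0.01 to 0.70, adjusted p = 0.658) without heterozygote 3. A second Ifit2 probe, also detected on all arrays, gave a difference of -0.06.

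Rsad2 encodes viperin, an enzyme that makes a chain-terminating nucleotide against viral RNA synthesis. Its signals were 289.6, 331.3, 259.8 and 393.7 in the heterozygotes and 187.0, 262.3, 246.2 and 239.0 in the wild types. On this deposited scale heterozygotes 1, 2 and 4 were the highest 3 mice, and heterozygote 3 lay inside the wild-type range. After normalization wild type 4 (8.18) lay above heterozygote 1 (8.15). The difference was 0.21 (95% interval -0.12 to 0.55, adjusted p = 0.947) with all mice and 0.31 (-0.01 to 0.62, adjusted p = 0.651) without heterozygote 3, so that for Rsad2 and Ifit2 the estimate was larger without that mouse. The ISRE cores printed above for Rsad2 and Ifit3 therefore belong to members that differed in where heterozygote 3 stood.

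The oligoadenylate synthetase genes Oas1g and Oas2 and the related Oasl2, whose products sense double-stranded RNA or inhibit a sensor of DNA, completed the measured effectors. Their differences were between 0.46 and 0.51 with all mice and between -0.05 and 0.07 without heterozygote 3. Over the 8 effectors the median difference was 0.49, and 0.19 without heterozygote 3. With the filter redone on the other 7 mice, which drops Mx2, the median of the 7 left was 0.07.

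The membrane proteins Ifitm2 and Ifitm3 hinder the fusion of viral and cellular membranes. For Ifitm3 the signals were 2310.3, 1768.3, 3747.7 and 2348.1 in the heterozygotes and 1360.2, 2654.7, 1606.3 and 1244.1 in the wild types, with heterozygote 3 highest and wild type 2 second. Ifitm2 signals were 1346.1, 1135.6, 2188.1 and 1819.3 in the heterozygotes and 805.3, 1381.3, 1352.2 and 874.2 in the wild types, again with heterozygote 3 highest and the other mice overlapping. Their differences were 0.41 (95% interval -0.17 to 1.00, adjusted p = 0.947) and 0.38 (95% interval -0.10 to 0.85, adjusted p = 0.947), and without heterozygote 3 they were 0.16 (-0.27 to 0.59, adjusted p = 0.859) and 0.18 (-0.17 to 0.53, adjusted p = 0.817).

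Bst2, or tetherin, holds budding virus particles at the cell surface, and Ifi27 is a small interferon-induced membrane protein. Signals of Bst2 were 17.6, 21.2, 109.9 and 27.7 in the heterozygotes and 11.1, 34.8, 23.6 and 25.0 in the wild types, so that heterozygote 3 stood alone and the rest were mixed. Ifi27 was at 2331.5, 936.4, 6615.4 and 3646.9 in the heterozygotes and 1077.7, 2267.4, 1522.4 and 2025.4 in the wild types, where heterozygote 3 was highest, heterozygote 4 second and heterozygote 2 lowest. The differences of Bst2 were 0.33 (95% interval -0.40 to 1.07, adjusted p = 0.971) with all mice and -0.04 (-0.43 to 0.35, adjusted p = 0.969) without heterozygote 3, and those of Ifi27 were 0.57 (95% interval -0.52 to 1.66, adjusted p = 0.971) and 0.07 (-0.70 to 0.84, adjusted p = 0.975). The 4 membrane genes had a median difference of 0.40, and 0.11 without that mouse.

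The GTPases Gbp2, Irgm1, Igtp and Ifi47 are induced mainly by interferon gamma and act on vacuoles that hold bacteria or parasites. Gbp2 had signals of 398.7, 352.4, 876.7 and 466.2 in the heterozygotes and 258.2, 626.3, 299.4 and 266.3 in the wild types, with heterozygote 3 highest and wild type 2 second. Igtp was at 124.4, 80.5, 304.3 and 140.3 in the heterozygotes and 97.8, 138.4, 85.1 and 66.8 in the wild types, and Ifi47 at 22.6, 12.9, 102.0 and 7 and 11.6, 19.8, 7.8 and 12.1, both with heterozygote 3 highest and the others overlapping. For these 3 genes the differences were 0.33 (95% interval -0.34 to 1.01, adjusted p = 0.971), 0.38 (95% interval -0.30 to 1.06, adjusted p = 0.954) and 0.50 (95% interval -0.34 to 1.34, adjusted p = 0.953) in the order given. Without heterozygote 3 they were 0.04 (-0.46 to 0.54, adjusted p = 0.977), 0.07 (-0.39 to 0.53, adjusted p = 0.953) and 0.07 (-0.39 to 0.52, adjusted p = 0.954).

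Irgm1, an immunity-related GTPase that regulates others of its family, varied little at its brightest probe. Its signals were 1916.7, 1498.6, 2258.8 and 2262.2 in the heterozygotes and 1279.8, 1815.8, 1873.6 and 1627.8 in the wild types, with heterozygotes 3 and 4 highest at nearly the same signal, and after normalization heterozygote 3 (11.22) stood above heterozygote 4 (10.91). The difference was 0.09 (95% interval -0.25 to 0.44, adjusted p = 0.984), and -0.02 (-0.32 to 0.27, adjusted p = 0.976) without heterozygote 3. A second Irgm1 probe, also detected on all arrays, was at 181.8 in heterozygote 3 and 53.1 to 95.9 in the other mice. That probe gave a difference of 0.26, and 0.02 without heterozygote 3. With Gbp6 and Ifi35, the 6 genes of this group had a median difference of 0.36, and 0.07 without that mouse.

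The cytoplasmic RNA sensors were dim. Ddx58, which encodes RIG-I, had signals of 6.6, 10, 49.7 and 10.5 in the heterozygotes and 11.0, 13.6, 10.7 and 12.5 in the wild types, so that heterozygote 3 was far above all other mice. It was the only heterozygote with the probe detected, and the normalized levels of the others overlapped those of the wild types. Dhx58, a relative without its signalling domains, was at 18.7, 16, 84.3 and 16.2 in the heterozygotes and 9.5, 19.8, 15.4 and 6.5 in the wild types, with the same mouse highest. The differences were 0.12 (95% interval -0.43 to 0.66, adjusted p = 0.988) for Ddx58 and 0.57 (95% interval -0.08 to 1.22, adjusted p = 0.947) for Dhx58, and without heterozygote 3 they were -0.16 (-0.45 to 0.13, adjusted p = 0.789) and 0.23 (-0.11 to 0.58, adjusted p = 0.75).

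Usp18, which removes Isg15 from its targets and inhibits signalling at the type I interferon receptor, had the largest difference among the members with all mice and this processing, and Gbp6 had it without heterozygote 3. Its signals were 81.6, 37.6, 440.3 and 116.5 in the heterozygotes and 43.0, 64.4, 57.4 and 49.1 in the wild types. Heterozygote 3 was highest, heterozygotes 4 and 1 followed, and heterozygote 2 was the lowest of all 8 mice. Normalized levels were 7.0 ± 1.23 in the heterozygotes and 6.19 ± 0.04 in the wild types (log2 intensity, SD, n = 4 each), so that the spread lay almost wholly among the heterozygotes. The difference was 0.82 (95% interval -0.26 to 1.89, adjusted p = 0.947) with all mice and 0.24 (-0.24 to 0.72, adjusted p = 0.818) without heterozygote 3.

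Irf9 and Stat2 are parts of the complex that binds the ISRE, Irf1 is a factor induced mainly by interferon gamma, and Irf8 is a factor of macrophages, dendritic cells and B cells. Irf9 signals were 115.4, 53.9, 240.1 and 114.2 in the heterozygotes and 82.5, 124.6, 86.3 and 72.2 in the wild types, Stat2 signals 15.7, 8.3, 48.5 and 20.2 and 6.3, 26.7, 18.7 and 7.5. Irf1 was at 831.5, 539.2, 1080.3 and 756.3 in the heterozygotes and 462.2, 701.6, 626.2 and 527.0 in the wild types, and Irf8 at 17.8, 12.4, 83.4 and 18.5 and 22.7, 20, 23.6 and 4.9. In all 4 genes heterozygote 3 was highest and the other mice of both genotypes overlapped. Differences were 0.16 (95% interval -0.50 to 0.81, adjusted p = 0.985) for Irf9, 0.25 (95% interval -0.30 to 0.79, adjusted p = 0.971) for Stat2, 0.24 (95% interval -0.20 to 0.69, adjusted p = 0.962) for Irf1 and 0.29 (95% interval -0.46 to 1.04, adjusted p = 0.971) for Irf8. Without heterozygote 3 they were -0.14 (-0.60 to 0.31, adjusted p = 0.882), 0.05 (-0.42 to 0.51, adjusted p = 0.97), 0.05 (-0.26 to 0.36, adjusted p = 0.951) and -0.05 (-0.58 to 0.47, adjusted p = 0.969) in the same order.

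Tap2, the partner of Tap1 in the transporter that feeds peptides to MHC class I, differed least. Its signals were 267.5, 211.6, 375.6 and 298.5 in the heterozygotes and 176.7, 251.1, 235.8 and 313.6 in the wild types, with heterozygote 3 and wild type 4 highest. The difference was 0.04 (95% interval -0.39 to 0.46, adjusted p = 0.996), and -0.09 (-0.49 to 0.30, adjusted p = 0.914) without heterozygote 3.

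**Figure D4:**
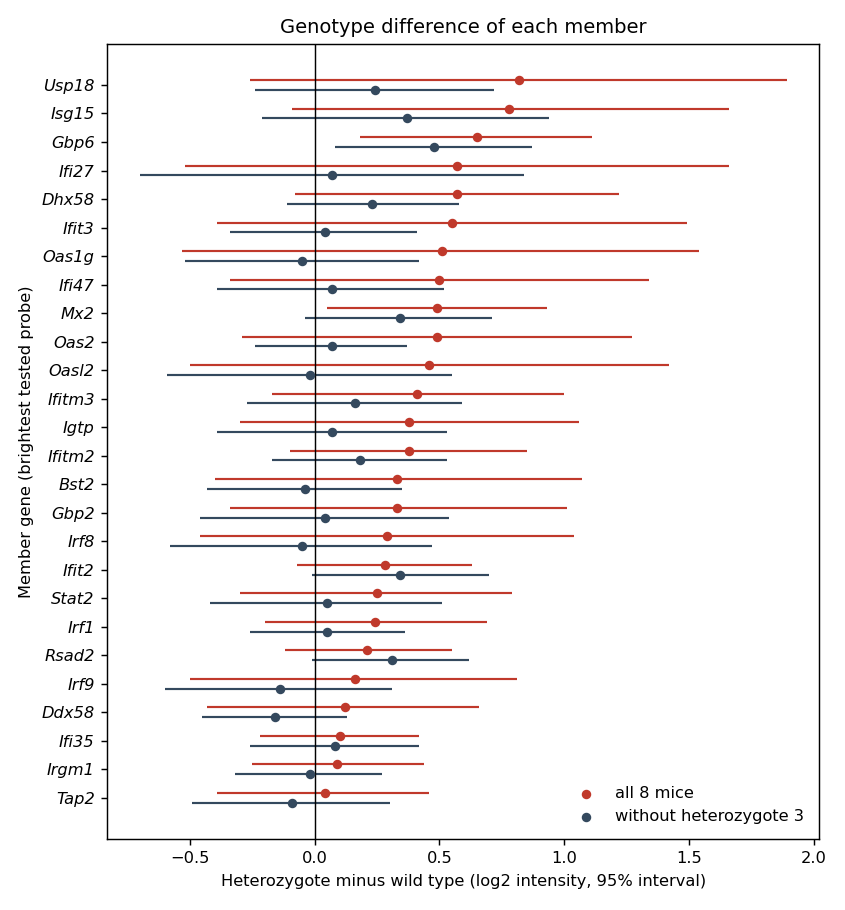
Heterozygote minus wild type in normalized log2 intensity for each of the 26 members, with 95% intervals from limma, for all 8 mice and without heterozygote 3. All 26 points lie above 0 with 8 mice (median 0.38) and 18 without heterozygote 3 (median 0.07), and the intervals of Gbp6 exclude 0 in both.

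Probes of the same gene were set side by side where more than 1 was tested, which was the case for 7 genes with 16 probes. Of these probes, 3 had a difference below 0, namely the second Ifit2 probe and a pair of Irf1 probes at -0.05 each. The second probes of Ifit3 and Irf9 gave 0.08 and 0.02, against 0.55 and 0.16 for the brightest, while those of Usp18 and Ifi27 gave 0.63 and 0.56, against 0.82 and 0.57. For Irgm1 the second tested probe gave 0.26, against 0.09 for the brightest. In the tested members with a promoter window, heterozygote 3 was highest in 11 of the 12 that held an ISRE core and in 5 of the 7 that did not.

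Other genes of the pathway were followed in lists kept apart from the members. Of 17 interferon ligand genes on the array, 15 were detected on 0 arrays, Ifnb1 and Ifng among them, and Ifna1 and Ifnz on 1 array each, so that 0 could be tested. The array detected neither of these 2 ligands in heterozygote 3. Of 8 tested receptor and kinase genes, 4 were higher and 4 lower in the heterozygotes, with a median of -0.02 (0.04 without heterozygote 3). Ifnar1, a chain of the type I receptor, was not detected. In the lists described here 0 genes passed an adjusted p of 0.05. Beside the counts of genes higher in each list, 50.1% of all probes were higher, and 54.1% without heterozygote 3.

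Of the 6 tested STAT and IRF factors outside the members 5 were higher, with a median of 0.14 (-0.01 without heterozygote 3). For 8 sensors and adaptors of nucleic acid, 5 were higher and the median was 0.11 (0.08 without that mouse). A list of 7 genes held feedback inhibitors of the pathway, such as Socs3, and also Isg20l2 (0.20), which is not counted as an inhibitor here. Of these 7 genes 5 were higher, Isg20l2 among them, and the median was 0.26 (0.10 without heterozygote 3).

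A further list of 20 tested interferon-induced genes that are not members followed the members. Of these, 19 were higher in the heterozygotes with a median of 0.32, and 13 were higher with a median of 0.09 without heterozygote 3. Heterozygote 3 was the highest mouse for 20 of 20, against 19.0% of all probes, though the filter had counted that mouse. With the detection filter redone on the other 7 mice this was so for 18 of 18, beside 20 of 24 members (83.3%) and 18.7% of all 10248 probes then kept. Irgm2, an immunity-related GTPase, was the 1 gene of this list with an unadjusted p under 0.05, at 0.59 (95% interval 0.07 to 1.10, adjusted p = 0.947), and 0.33 (0.03 to 0.63, adjusted p = 0.637) without heterozygote 3. Its signals were 451.6, 335.2, 782.6 and 441.4 in the heterozygotes and 235.7, 355.4, 296.0 and 230.3 in the wild types, where only heterozygote 2 overlapped the wild types. Without heterozygote 3, Ifi27l2a also had an unadjusted p under 0.05, in the other direction, at -0.90 (-1.78 to -0.02, adjusted p = 0.637). Of 11 genes of MHC class I and the immunoproteasome, whose products cut and present peptides, 6 were higher with a median of 0.02 (-0.07 without heterozygote 3), and that mouse was highest for 6 of 11.

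Markers of other cell types moved with heterozygote 3 too. Of 12 lung epithelium genes it had 7 detected, wild type 1 had 4, wild type 4 had 2, heterozygote 4 had 1 and the other 4 mice had 0. Their summed signal was 11245 in heterozygote 3 and 13 to 620 in the other heterozygotes, and 3 to 6866 in the wild types, with 6866 in wild type 1. Most of it came from Scgb1a1, a secretory protein of airway epithelium, at 10646.3 in heterozygote 3 and 6624.0 in wild type 1. Ager, Cldn18, Lamp3, Nkx2-1 and Reg3g of that list were not detected in any mouse. The median of the members relative to the wild types, given above, was 1.24 in heterozygote 3 and 0.04 in wild type 1, and a part of airway tissue in it was not tested.

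By summed signal, B cell, T cell, macrophage and fat markers were also highest in that mouse, and neutrophil markers were not. The summed signal of 8 neutrophil genes was 202 in heterozygote 3, 114 to 220 in the other heterozygotes and 175 to 293 in the wild types, with Ngp, Camp, Retnlg, Mpo and Elane not detected in any mouse. That sum joins genes that went different ways. S100a8 was lowest in heterozygote 3 (32.1, against 80.4 to 180.6), and S100a9 (26.1) lay inside the range of the other mice. Ltf was at 134.0 in heterozygote 3 and 151.4 in wild type 1, against 1.6 to 16.4 elsewhere. Of 8 B cell and plasma cell genes Jchain and Pax5 were not detected in any mouse, and Mzb1 (1442.0) gave most of the sum in heterozygote 3. The summed signal of these 8 genes was 2063 in heterozygote 3, 31 to 161 in the other heterozygotes and 34 to 453 in the wild types. For 13 T cell and thymocyte genes it was 610, 52 to 88 and 58 to 155 in the same order, with Cd4, Cd8a, Dntt, Themis and Ccr9 not detected. For 14 macrophage genes, all detected in heterozygote 3, it was 20121, 6957 to 10953 and 6434 to 9452. Most of that 20121 came from Lyz2 (3803.9) and from a probe with the symbol Lyz, matched here to Lyz1 (11967.7). Whether the signal of the Lyz1 probe came from macrophages was not tested. Heterozygote 3 was the highest mouse for 12 of 13 tested macrophage genes. All 13 tested macrophage genes were higher in the heterozygotes, against 50.1% of all probes, and 8 of 13 without heterozygote 3, against 54.1%. Of the 13, 3 had an unadjusted p under 0.05, namely Cx3cr1, C1qc and F13a1, where 2.04% of all probes did in that direction. Without heterozygote 3 Cx3cr1 did, at 0.52 (95% interval 0.03 to 1.02, adjusted p = 0.637), where 4.03% of all probes did.

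Of 8 adipocyte genes Fabp4 and Retn were not detected, and Cfd (20037.9) gave most of the sum in heterozygote 3. The summed signal of these 8 genes was 25293 in heterozygote 3, 834 to 11219 in the other heterozygotes and 3442 to 10822 in the wild types. For 8 plasmacytoid and conventional dendritic cell genes it was 87, 34 to 39 and 42 to 65, and Cd209d, Xcr1, Clec9a, Flt3, Itgax and Ccr7 were not detected. NK cell genes were at 228, 95 to 128 and 87 to 151, with Ncr1, Klrb1c, Gzma, Gzmb and Eomes not detected. Cardiomyocyte genes summed to 125999 in heterozygote 3 and 123583 to 145263 in the other 7 mice, with 10 or 11 of 11 genes detected in each mouse. Their mean normalized log2 level over the tested genes was lowest in heterozygote 3 (12.24, against 12.37 to 12.60). With all mice 10 of 11 were lower in the heterozygotes, with a median difference of -0.11. Without heterozygote 3 the median was -0.10 and 3 of 11 were higher. The part of any of these cell types in the level of the interferon-induced genes was not tested.

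**Figure D5:**
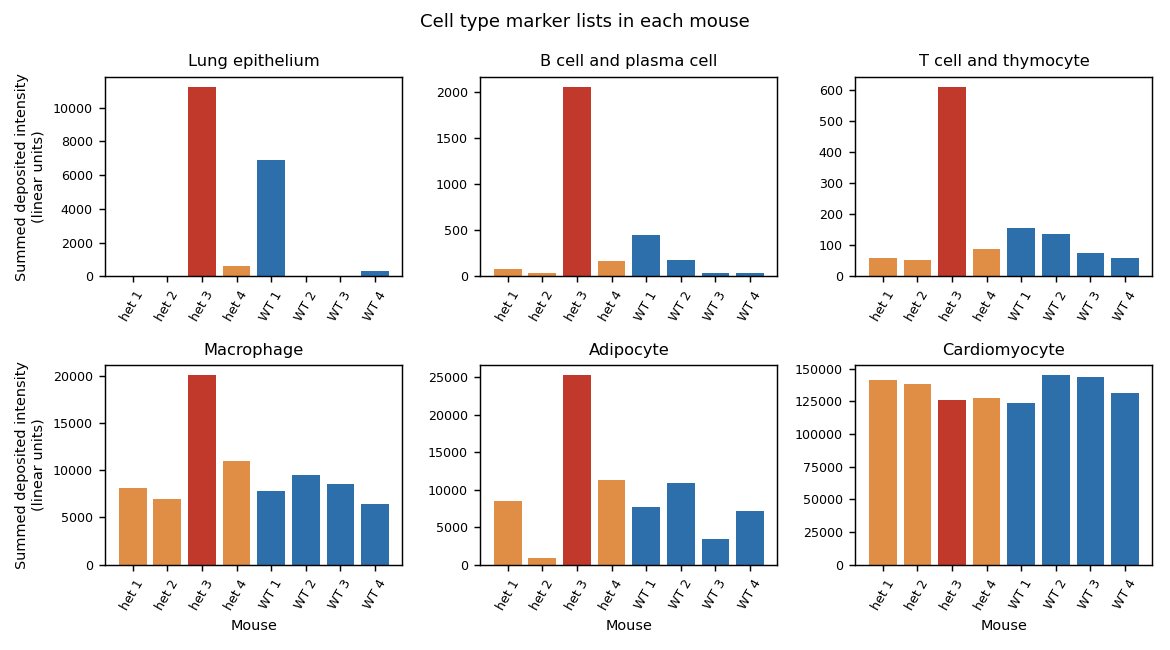
Summed deposited intensity (linear units, bars from 0) of 6 lists of cell type markers in each mouse (het, heterozygote, and WT, wild type). Heterozygote 3 has the highest sum in the lung epithelium, B cell, T cell, macrophage and adipocyte lists, and the cardiomyocyte sums run from 123583 to 145263.

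The array of heterozygote 3 stood apart in other ways as well. Its mean correlation with the other arrays was 0.9496, against 0.9714 to 0.9766 for the rest, and its median signal was 7.56, against 4.98 to 6.55. Probes detected per array ran from 10094 to 11545. The genotype labels were not checked against expression of the targeted gene. The number of arrays, 4 per genotype, limits the precision of each difference.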

How the data were processed

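Each mouse's total RNA was run on 1 Illumina bead array from biotinylated cRNA, per the labels' protocols. Per the file headers, the deposited table of non-normalized values gives every probe a mean bead intensity and a detection p-value in each mouse. The intensity values are linear with background already subtracted by the authors, since between 23.03% and 27.22% per array are below 0. The deposited table of authors' normalized intensity keeps each array's rank order, with array medians of 5.01 to 5.04, and served as an alternative. Its method, the scanner and the software were not given in the sources used here.

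Intensities were corrected with limma's normexp model (nec, detection p-values, offset 16), quantile normalized and taken to log2, which gave a scale from 4.10 to 14.61 and pulls differences of dim probes towards 0. The filter asked for a detection p under 0.01 in 4 or more of the 8 mice. The fit used lmFit and eBayes per probe over all 10547 kept probes, with two-sided p-values adjusted by Benjamini-Hochberg (threshold 0.05) and 95% intervals, and was checked on simulated data. A gene is described by its brightest kept probe. The tools were limma 3.58.1 in R 4.3.3, and pandas 2.3.3 and matplotlib 3.10.9 in Python 3.11.15.

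The 18120 distinct symbols of the table were matched to RefSeq (GRCm38.p6): 12036 were current, 5207 were a synonym of 1 gene and 877 were kept as they stood. The members and lists were chosen with earlier results of these data known, so no test of the whole set is given. Some items are not reported here. Signals in every mouse are given for Isg15 and Gbp6 and, within each role group, for up to 4 tested members with the smallest unadjusted p and up to 2 with the highest level. Irf7, Tap1, Irgm2, Ifi27l2a, Scgb1a1, Flt1, Mzb1, Cfd and the macrophage genes Cx3cr1, C1qc and F13a1 were named after their values were seen. Alternatives covered normalization, background correction, the filter, probe choice, array weights, eBayes options, the mouse number as a block, and each mouse left out.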

Additional observations from a re-analysis of the deposited data

Results flagged for a closer look

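In 7 of 46 groups of 4 mice (the members with signals given mouse by mouse and the median over members, in each genotype) the highest mouse stood apart by Dixon's criterion at the 95% level. The groups share the same 8 mice, and the genes were partly chosen by their values, so this count is a description and no test. The share of all probes that meet the criterion is not given, so the count has no background to be read against. Heterozygote 3 was the highest of the 8 mice for 19.0% of all probes. The criterion was met by heterozygote 3 in 6 of the 7 groups. Its normalized log2 level was 9.74 for Ifit3 (7.65 to 7.79 in the other heterozygotes), 11.96 for Ifitm3 (10.83 to 11.02), 6.77 for Bst2 (5.13 to 5.34), 9.79 for Gbp2 (8.58 to 8.67), 6.41 for Dhx58 (4.95 to 5.17) and 6.40 for Irf8 (4.92 to 5.14). The remaining one was wild type 2 for Isg15, at 5.94 against 5.08 to 5.16 in the other wild types.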

How the results depend on the processing

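Two-sided limma tests called 0 probes at an adjusted p of 0.05 under every one of 21 settings (the lowest adjusted p was 0.135, and 300 to 1553 probes had an unadjusted p under 0.05, the most with array weights). The members' median difference of 0.38 ranged from 0.07 (without heterozygote 3) to 0.51 (without heterozygote 2) when each mouse was left out, and from 0.19 (array weights, which gave heterozygote 3 a weight of 0.2725) to 0.53 (scaling to equal medians, where all probes shifted by 0.14) otherwise. The number of members higher was 18 to 26 when each mouse was left out and 17 of 24 with the detection filter redone without heterozygote 3. It was 23 of 26 with array weights, 36 of 39 with no detection filter (median 0.27) and 19 of 19 with exact symbols, an alternative chosen, like the redone filter, after seeing the data. Mouse numbers did not pair the samples (same-number correlations of -0.24, -0.276, -0.42 and 0.211), and with the number as a block the median was 0.38 with 26 of 26 higher and 0 probes called.

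Gbp6 had an unadjusted p of 0.00472 to 0.0363 over its settings, while that of Mx2 was 0.149 with floored signals, 0.141 in the authors' normalized table, 0.0675 with an offset of 50 and 0.0686 to 0.0811 without heterozygote 3, heterozygote 4, wild type 2 or wild type 4. Scaling to equal medians put Isg15 (0.0446), Ifitm2 (0.0428), Ifitm3 (0.0480) and Usp18 (0.0476) under 0.05 as well. Other settings added members too, such as array weights for Rsad2 (0.0248) and Ifit2 (0.0427). Leaving out heterozygote 2 did so for Usp18 (0.0213) and Ifi27 (0.0225), and leaving out heterozygote 4 for Isg15 (0.0200) and Dhx58 (0.0437). Isg15 was also at 0.0388 without wild type 2. Isg15 exceeded Usp18 with floored signals (1.11 against 0.93) and in the authors' table (1.10 against 0.92).

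Of 22 genes given mouse by mouse, 6 changed sign in 15 of 454 gene and setting pairs. With each mouse left out, differences ran from -0.04 to 0.50 for Bst2, -0.02 to 0.19 for Irgm1, -0.16 to 0.25 for Ddx58, -0.05 to 0.44 for Irf8, -0.14 to 0.40 for Irf9 and -0.09 to 0.18 for Tap2, all lowest without heterozygote 3, and Tap2 was at -0.03 without wild type 2 and without wild type 3. The redone filter gave Bst2 -0.04, Irgm1 -0.02, Irf8 -0.05, Irf9 -0.14 and Tap2 -0.09, and array weights gave Ddx58 -0.07 and Irf8 -0.06. Each of these alternatives leaves out a mouse or lowers the weight of heterozygote 3, and the cause was not tested. With 4 mice per genotype and dim probes held near the normalized floor, small differences could not be resolved.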

Other observations

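Fibroblast markers were higher in the heterozygotes for 7 of 7 tested genes with a median of 0.14, and for 3 of 7 with a median of 0.00 without heterozygote 3, and Postn, a marker of activated fibroblasts, was not detected. Endothelial markers were lower for 6 of 8 tested genes with all mice, and 3 of 8 were higher without heterozygote 3. Their median was -0.07 with and without that mouse, and Kdr was not detected. The 3 tested neutrophil genes were lower, with a median of -0.35, and -0.32 without heterozygote 3, while Ngp, Camp, Retnlg, Mpo and Elane were not detected. Of these lists 0 genes passed an adjusted p of 0.05 by limma. Flt1, an endothelial receptor gene, was higher in the heterozygotes by 0.33, with an unadjusted limma p of 0.0499. Without heterozygote 3 these values were 0.36 and 0.0416. An unadjusted p under 0.05 in that direction was found for 2.04% of all probes, and for 4.03% without heterozygote 3.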
